A study of Mus musculus with 2 samples.

Results

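Kruppel-like factors are zinc-finger transcription factors, and 8 of them that are used by lymphocytes, endothelium or stroma were followed here: Klf2, Klf3, Klf4, Klf6, Klf7, Klf10, Klf12 and Klf13. Every non-control probe carrying one of these names was taken, which gave 15 of the 41174 gene probes on the array. No probe carried the older Klf10 name Tieg1. The genes were selected on their Cy5 over Cy3 ratios in these same arrays, so those ratios are given as a description and without a test. The RNA came from pancreatic lymph nodes, which drain the pancreas, of female non-obese diabetic (NOD) mice aged 16 weeks, a strain that develops autoimmune diabetes. On each of 2 Agilent two-colour arrays, Cy5 carried 1 hyperglycemic mouse (blood glucose over 500 mg/dl), and Cy3 carried a pool of 2 euglycemic mice (under 200 mg/dl). The labels name no transgene, deletion or treatment for any animal. The hyperglycemic mice were the replicates (n = 2), and the pool was 1 control sample hybridised to both arrays, so that the spread among euglycemic mice was not measured. Dyes were not swapped, so a dye effect on a single probe and the group difference cannot be told apart.

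All family members bind CACCC and GC-rich boxes through C-terminal zinc fingers and differ mainly in the cofactors that their N-terminal parts recruit. In naive T cells Klf2 keeps cells quiescent and supports genes of their trafficking, and in endothelium Klf2 and Klf4 are induced by blood flow through the kinase Erk5 and MEF2 factors. Klf10 is an early target of TGF-beta, and Klf13 was first studied as an activator of the chemokine gene Ccl5 in T cells.

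The promoters of Klf2, the member with the brightest probe, and of Klf4, the member with the highest deposited ratio, are shown for the elements just named. Each line gives the 250 bases before the RefSeq transcription start (build GRCm38.p6) on the gene's own strand. These are chr8:72318812-72319061 (plus strand) for Klf2 and chr4:55532476-55532725 (minus strand) for Klf4. Capitals mark the MEF2 consensus and a CACCC box in Klf2, and GC boxes in Klf4.
Klf2: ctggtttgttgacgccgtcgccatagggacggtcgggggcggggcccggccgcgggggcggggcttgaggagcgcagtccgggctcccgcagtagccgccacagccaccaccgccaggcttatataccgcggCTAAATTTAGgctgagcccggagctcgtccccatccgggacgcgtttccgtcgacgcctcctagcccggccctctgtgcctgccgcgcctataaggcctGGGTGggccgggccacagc
Klf4: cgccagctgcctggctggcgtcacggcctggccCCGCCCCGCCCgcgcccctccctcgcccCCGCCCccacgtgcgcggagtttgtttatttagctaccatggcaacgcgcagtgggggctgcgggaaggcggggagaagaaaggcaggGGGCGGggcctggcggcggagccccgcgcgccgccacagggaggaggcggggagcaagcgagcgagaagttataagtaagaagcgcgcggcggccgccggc
The Klf2 window held the MEF2 consensus CTAAATTTAG 118 to 109 bases before the start and 1 CACCC box, read as GGGTG on this strand, 19 to 15 bases before it. Klf2 was the 1 of 7 members with a window in the table that held the MEF2 consensus, which occurred in 2.92% of 32851 mouse windows. A CACCC box (CACCC or GGGTG) was present in 5 of the 7 member windows and in 52.0% of all windows. The GC box (GGGCGG or CCGCCC) was present in 6 of 7, against 32.7% of all windows. In the Klf3 and Klf13 windows a CACCC box and a GC box overlapped by 1 base. A forkhead site (GTAAACA or TGTTTAC) was found in 0 of the 7 and in 3.17% of all windows. Klf2 and Klf4 windows were 71.2% and 74.0% G and C, against a median of 52.4% over all windows. These matches describe letters and not binding.

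2 sets of ratios were used, always as log2 of the hyperglycemic mouse over the euglycemic pool. The deposited ratios are the authors' value table, which held 8 member probes of 6 genes among 5072 gene probes. It held no probe of Klf7 or Klf12. The scanner-signal ratios were recomputed from mean spot signals and held 10 member probes of 7 genes among 8815 tested probes, without Klf12. Scanner-signal ratios climbed with spot brightness at the bright end. Those of Klf2 probe 1 and Klf4 are therefore set beside the median of the 200 tested probes nearest in intensity. For the other tested member probes that median lay between -0.11 (Klf6 probe 2) and -0.003 (Klf2 probe 2). Processed signals are the scanner software's background-subtracted and dye-normalized intensities, whose ratio equals the deposited one. Before dye normalization every member probe had a brighter Cy3 than Cy5 spot on both arrays. A ratio above 0 therefore rests on the normalization. Where a tissue holds many cell types, fewer cells of a type and less RNA per cell cannot be told apart.

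**Figure D1:**
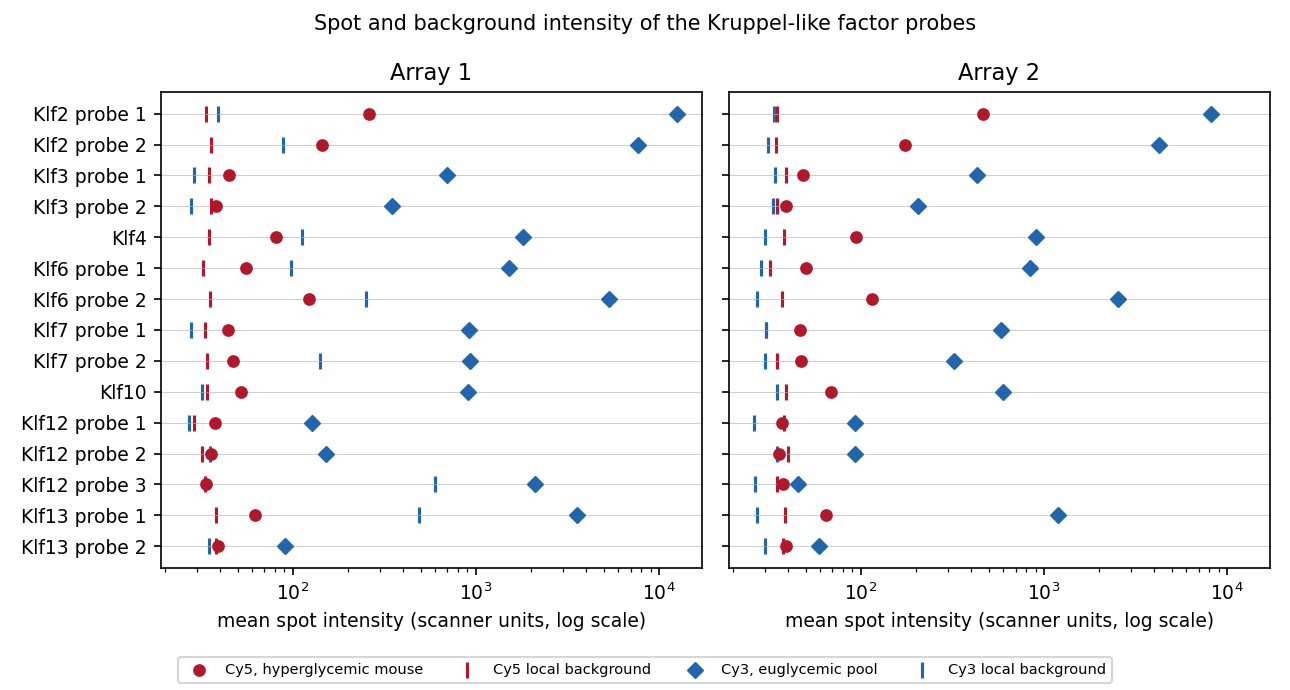
Mean spot intensity of the 15 Kruppel-like factor probes in scanner units on a log axis, with array 1 on the left and array 2 on the right. Circles are Cy5 (1 hyperglycemic mouse), diamonds are Cy3 (the euglycemic pool) and ticks are each channel's local background. Klf2 probe 1 is the brightest in both channels on both arrays, while the Klf12 circles lie at their background.

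Klf2, the factor of T cell quiescence and trafficking, had 2 probes, both on the plus strand of chromosome 8. Probe 1 (A_52_P442031, mm8 chr8:75248851-75248910) gave processed signals of 10027 and 21583 in the hyperglycemic mice, against 5588 and 10028 in the pool on the same arrays. Its spot signals before dye normalization were 262 and 466 in Cy5, against 12553 and 8183 in Cy3. Its deposited ratios were 0.84 and 1.11 (0.97 ± 0.19, SD, n = 2), a 1.97-fold mean difference. Both hyperglycemic mice lay above the pool on their own array. The 200 probes nearest in intensity had a median deposited ratio of 0.08, and 91.5% of all table probes were below Klf2 probe 1. The scanner-signal ratios were 1.49 and 1.58 (1.54 ± 0.07, SD, n = 2), where the nearest probes in intensity had a median of 0.69. With the loess curve fitted to the tested probes alone, an alternative chosen after seeing the data, the value was 0.78 ± 0.28 (SD, n = 2), and with median centring in place of loess it was -0.77.

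Klf2 probe 2 (A_51_P144264, mm8 chr8:75250227-75250286) lies 1316 bases further 3′. It gave processed signals of 4313 and 6890 in the hyperglycemic mice, against 2986 and 4967 in the pool. The deposited ratios were 0.53 and 0.47 (0.50 ± 0.04, SD, n = 2) and the scanner-signal ratios 0.52 and 0.55 (0.53 ± 0.03, SD, n = 2). Both Klf2 probes were thus above 0 on both arrays in both sets, with the upstream probe giving the larger ratio in each.

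Klf4, which restrains proliferation and acts in endothelium and monocytes, had the highest member ratio in the value table. Its single probe (A_51_P213544, mm8 chr4:55549061-55549120, minus strand) gave processed signals of 2091 and 3264 in the hyperglycemic mice, against 620 and 948 in the pool. The spot signals were 81.5 and 94.1 in Cy5, over local backgrounds of 35 and 38, against 1816 and 901 in Cy3. Deposited ratios of 1.75 and 1.78 (1.77 ± 0.02, SD, n = 2) made a 3.41-fold mean difference. The closeness of the arrays held for the deposited ratios, whereas the scanner-signal ratios of 0.36 and 0.84 (0.60 ± 0.34, SD, n = 2) differed between mice. Probes nearest in intensity had medians of -0.07 in the deposited set and -0.10 in the scanner-signal set.

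Klf10, the TGF-beta-inducible member, also had 1 probe (A_51_P347547, mm8 chr15:38239377-38239436, minus strand). Its processed signals were 784 and 1830 in the hyperglycemic mice, against 329 and 604 in the pool. The Cy5 spot signals behind them were 52.0 and 68.9, over local backgrounds of 34 and 39. Deposited ratios were 1.25 and 1.60 (1.43 ± 0.24, SD, n = 2), a 2.69-fold mean difference, above 97.3% of table probes. Both mice were above the pool. The scanner-signal ratios were 0.12 and 0.52 (0.32 ± 0.28, SD, n = 2), and mouse 2 was the higher in both sets.

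Klf6, an early gene of tissue injury and wound repair, was read by 2 probes 2605 bases apart on chromosome 13. The brighter, probe 2 (A_51_P451346, mm8 chr13:5869371-5869430), gave processed signals of 3416 and 4065 in the hyperglycemic mice, against 1940 and 2973 in the pool. Its deposited ratios were 0.82 and 0.45 (0.63 ± 0.26, SD, n = 2), and its scanner-signal ratios were 0.47 and 0.34 (0.40 ± 0.09, SD, n = 2), or -0.76 with median centring. Probe 1 (A_51_P503162, mm8 chr13:5866706-5866765) split the mice. It gave 841 and 827 in the hyperglycemic mice, against 473 and 925 in the pool, with deposited ratios of 0.83 and -0.16 (0.33 ± 0.70, SD, n = 2). Its scanner-signal ratios were 0.12 and 0.00 (0.06 ± 0.08, SD, n = 2). In the deposited set the probes thus lay on opposite sides of 0 in mouse 2.

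Klf3, a repressor that recruits the corepressor CtBP, had a probe 1 (A_51_P492640, mm8 chr5:65101464-65102044, plus strand) whose mapped span of 581 bases is longer than a single probe. Processed signals were 443 and 685 in the hyperglycemic mice, against 233 and 407 in the pool, with deposited ratios of 0.93 and 0.75 (0.84 ± 0.13, SD, n = 2). The probe belongs to the dimmest part of the value table, where the 200 nearest probes had a median of 0.60. Its Cy5 spot signals were 45.1 and 48.5, over local backgrounds of 35 and 39. The scanner-signal ratios were 0.05 and 0.02 (0.04 ± 0.02, SD, n = 2). The second Klf3 probe (A_52_P462392), 6394 bases downstream, was not well above background in Cy5 on either array, and in Cy3 it was so on array 2 alone. Its processed ratios of -0.59 and -1.41 therefore rest on signals near background.

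Klf13, the Ccl5 activator, did not share the direction of the other table members. Probe 1 (A_51_P341169, mm8 chr7:63770693-63816921, minus strand, a span that crosses introns) gave processed signals of 1083 and 1616 in the hyperglycemic mice, against 1151 and 1422 in the pool. Deposited ratios were -0.09 and 0.18 (0.05 ± 0.19, SD, n = 2), so that the mice fell on opposite sides of 0, and the scanner-signal ratios were -0.09 and -0.02. On array 1 its Cy3 local background was 492, against 27 on array 2. Its other probe (A_52_P281659) was not well above background in either channel on either array.

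Klf7, known mainly from the nervous system, and Klf12, a repressor that also binds CtBP, were the members outside the value table. Klf7 probe 2 (A_51_P405280, mm8 chr1:64013046-64013105, minus strand) had spot signals of 47.3 and 47.1 in Cy5, little above a local background of about 35, and its scanner-signal ratios were 0.08 and 0.18 (0.13 ± 0.07, SD, n = 2). Its processed ratios were 1.22 and 0.87, with the pool signal of array 1 not well above background. Klf7 probe 1 (A_52_P239424), 45146 bases away, was well above background in the pool on both arrays but on neither in the hyperglycemic channel, and its scanner-signal ratios were 0.04 and 0.12. Processed ratios of this probe were 0.12 and -0.18, on opposite sides of 0. A lower bound on a pool excess came to less than 1-fold, so none is given. All 3 Klf12 probes were not well above background in Cy5 on either array, and their processed ratios lay between -2.75 and 0.37. Klf12 thus has no measured difference.

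**Figure D2:**
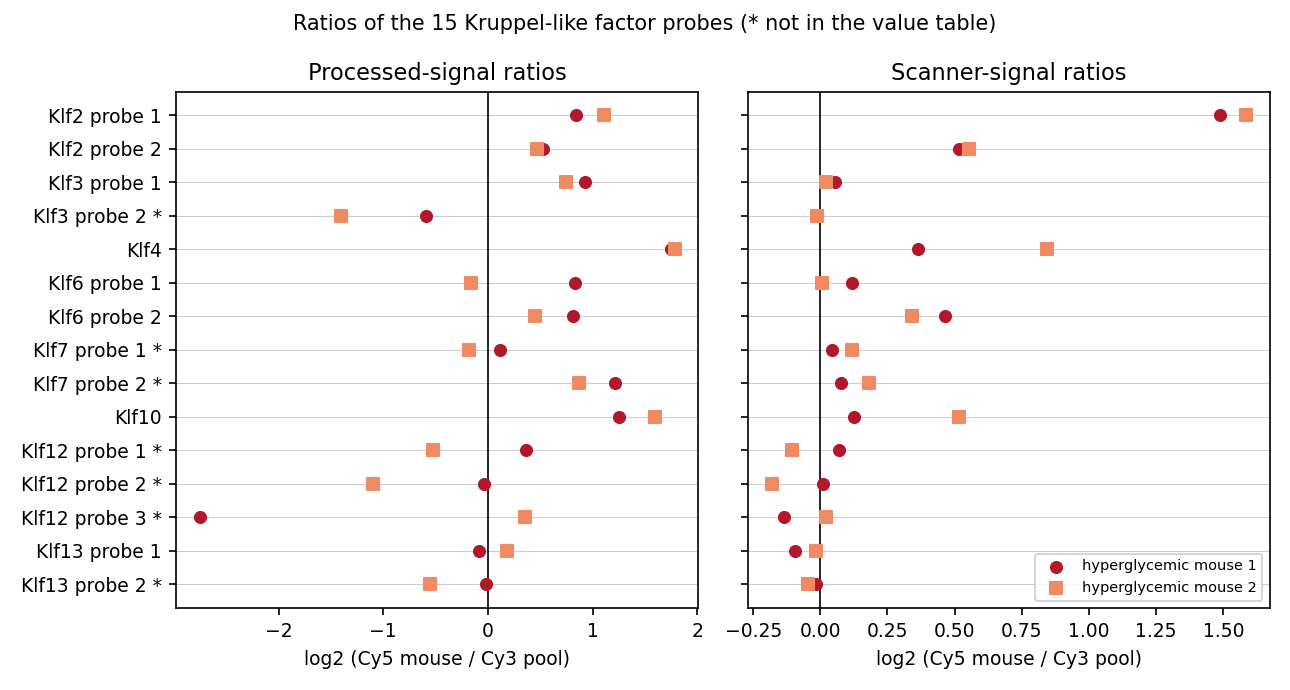
Log2 ratios of the hyperglycemic mouse over the euglycemic pool for the 15 Kruppel-like factor probes, from processed signals on the left and scanner signals on the right. Circles are mouse 1 and squares mouse 2, an asterisk marks a probe outside the value table, and the horizontal scales differ. Klf4 and Klf10 lie above 1 in both mice in the processed-signal panel, and Klf13 probe 1 lies on both sides of 0 there.

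**Figure D3:**
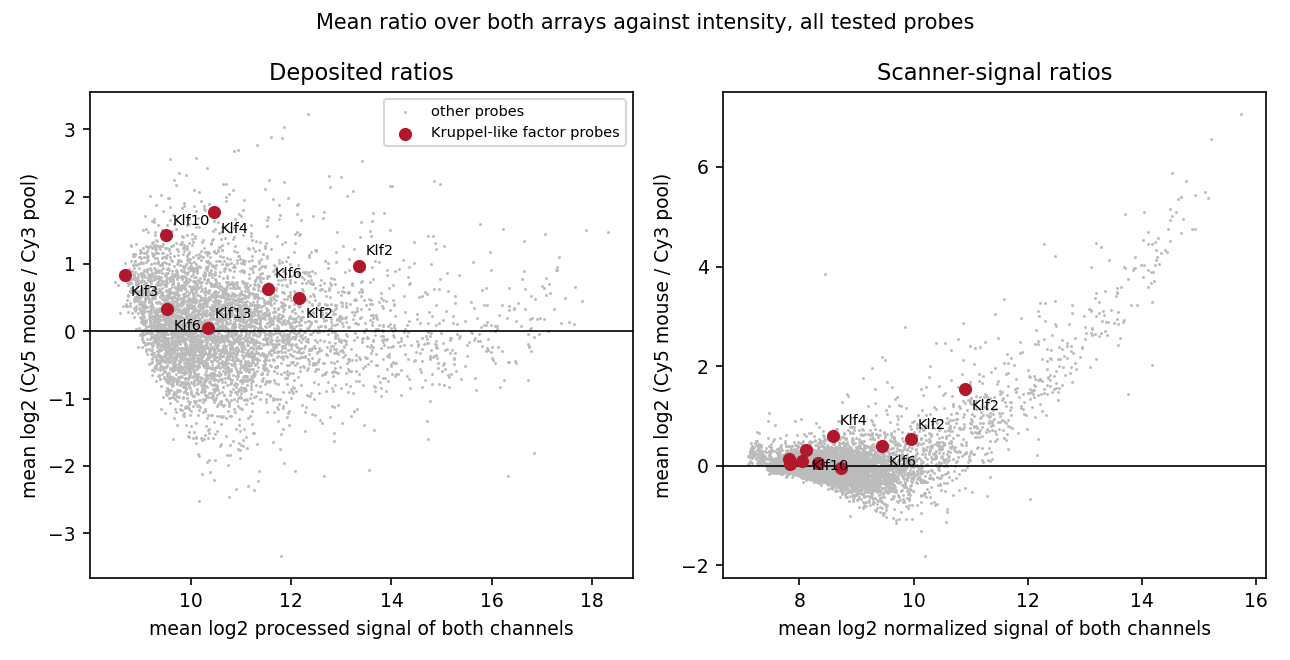
Mean log2 ratio over both arrays (hyperglycemic mouse over pool) against mean log2 intensity for all tested probes, with the deposited set on the left and the scanner-signal set on the right, and the Kruppel-like factor probes as large points. In the scanner-signal panel the cloud climbs at the bright end, where Klf2 probe 1 lies.

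Counted over genes, each by its brightest tested probe, the limma fit over all deposited ratios placed 5 of 6 members (Klf2, Klf3, Klf4, Klf6 and Klf10) past an adjusted p of 0.05 on the higher side, as it did 25.4% of all 4406 genes. It placed 0 members on the lower side, and 18.2% of all genes. The scanner-signal fit placed 1 of 7, Klf2, on the higher side, and 5.15% of 7297 genes. It placed 0 on the lower side, and 0.493% of genes. These ratios chose the genes, so the counts are no test of them and nothing is read from the counts. Calls also varied with intensity. Klf2 probe 1 lay in the brightest of 10 intensity bins of the scanner-signal fit, where 358 of 882 probes were called higher. Klf3 probe 1 lay in the dimmest bin of the deposited set, where 245 of 508 probes were called higher. With the identical Agilent processed ratios fitted over the 7297 genes of the scanner-signal filter, 0 members and 0 genes in all passed, where 3396 probes had an unadjusted p under 0.05. The member median was 0.91 in the deposited set and 0.32 in the scanner-signal set, beside medians of 0.07 and -0.03 over all genes. Ratios above 0 on both arrays were found for 5 of 6 members in the deposited set, where 45.1% of genes were so, and for 6 of 7 in the scanner-signal set, where 31.9% were. Klf4 and Klf10 were beyond 2-fold on both arrays in the deposited set, as were 5.56% of genes. In the scanner-signal set Klf2 was beyond 2-fold on both arrays, as were 3.23% of genes. The probes nearest to Klf2 probe 1 in intensity had a median of 0.69 in that set.

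Over the 2 arrays, the table probes with deposited ratios closest to those of Klf2 probe 1 were those of Gxylt1 (0.82 and 1.09), Deaf1 (0.85 and 1.13) and Sf3b1 (0.84 and 1.15). The measure was the Euclidean distance over the arrays, and 14 probes lay within 0.1 of Klf2 probe 1.

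Of 53 further genes in 5 lists around these factors, 19 had a deposited ratio, with 7 calls of higher and 3 of lower, where 25.4% of all table genes were called higher and 18.2% lower. Scanner-signal values existed for 29, with a call of higher for 1 (Sin3b) and a call of lower for 1 (Itgb7), beside 5.15% and 0.493% of all genes. With lists this small, the counts that follow set no list apart from those shares. All adjusted p-values that follow are from limma over all tested probes. Among the other Kruppel-like and Sp factors, 1 of 2 in the table rose. This was Klf15, a metabolic regulator of muscle, liver and fat, with 2.23 and 1.90 (2.07 ± 0.24, SD, n = 2, adjusted p = 5.41e-04), while its scanner-signal value was 0.70 ± 0.44 (adjusted p = 0.105). The other Klf15 probe (A_51_P299339), outside the value table, had processed ratios of 0.14 and -0.94. Its Cy5 signal was not well above background on either array. Sp1, the broadly expressed GC-box factor, had a deposited ratio of -0.21 (adjusted p = 0.311).

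Of 6 cofactors in the table, 3 rose and 1 fell, around a list median of 0.39. Sin3b, the scaffold of a histone deacetylase complex, rose by 0.68 ± 0.07 (SD, n = 2, adjusted p = 0.0112) and by 0.87 ± 0.03 in the scanner-signal fit (adjusted p = 0.0136) by probe A_52_P57526. A dimmer Sin3b probe (A_51_P159552), outside the value table, had -0.03 and -0.29 in the scanner-signal fit (adjusted p = 0.494), so the probes of Sin3b disagreed. Its paralog Sin3a rose by 0.85 ± 0.28 and Wwp1, a ubiquitin ligase that binds Klf2, by 0.87 ± 0.25 in the deposited set (adjusted p = 0.00705 and 0.00601). Their scanner-signal values were 0.11 for Sin3a and 0.18 for Wwp1 (adjusted p = 0.579 and 0.426). Hdac1, the deacetylase of the same complex, fell by 1.20 ± 0.20 (adjusted p = 0.00188), with a scanner-signal value of -0.63 (adjusted p = 0.103).

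Of the 4 measured regulators of Klf2 transcription, 1 rose in the deposited set. Mef2c, a factor that binds the MEF2 consensus, had 0.99 and 0.89 (0.94 ± 0.07, SD, n = 2, adjusted p = 0.00353), and 0.34 in the scanner-signal fit (adjusted p = 0.169). Foxo1, the forkhead activator of Klf2 in T cells, had -0.28 and -0.66 (adjusted p = 0.0566) and did not pass, and its other table probe (A_52_P453884) had 0.14 and -0.14. Mapk7, which encodes Erk5, had 0.31 and did not pass.

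Of 4 known targets of the family in the table, 1 rose and 2 fell. S1pr1, the egress receptor that Klf2 activates, had 0.05 and -0.04 (adjusted p = 0.967). Itgb7, an integrin chain of gut-homing lymphocytes, fell by 1.67 ± 0.21 (SD, n = 2, adjusted p = 8.83e-04) and was also called lower in the scanner-signal fit (-0.87 ± 0.30, adjusted p = 0.0318). Ccl5, the Klf13 target, had -1.25 and -0.20 (adjusted p = 0.0482) in the deposited set, but 0.97 in the scanner-signal fit (adjusted p = 0.0626), so the direction of this probe (A_52_P638459) depended on the set. Its dimmer probe (A_51_P485312) was below 0 in both, at -1.36 in the deposited set (adjusted p = 0.00147) and -0.77 in the scanner-signal fit (adjusted p = 0.0182). Lgals3, a galectin of macrophages, rose by 0.71 ± 0.15 in the deposited set (adjusted p = 0.0106), beside a scanner-signal value of 0.37 (adjusted p = 0.165). Of 3 TGF-beta pathway genes in the table, the signal transducer Smad2 rose by 0.61 ± 0.28 (adjusted p = 0.0247), with 0.16 in the scanner-signal fit (adjusted p = 0.476), while Tgfbr2 (0.34) and Smad4 (0.20) did not pass.

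**Figure D4:**
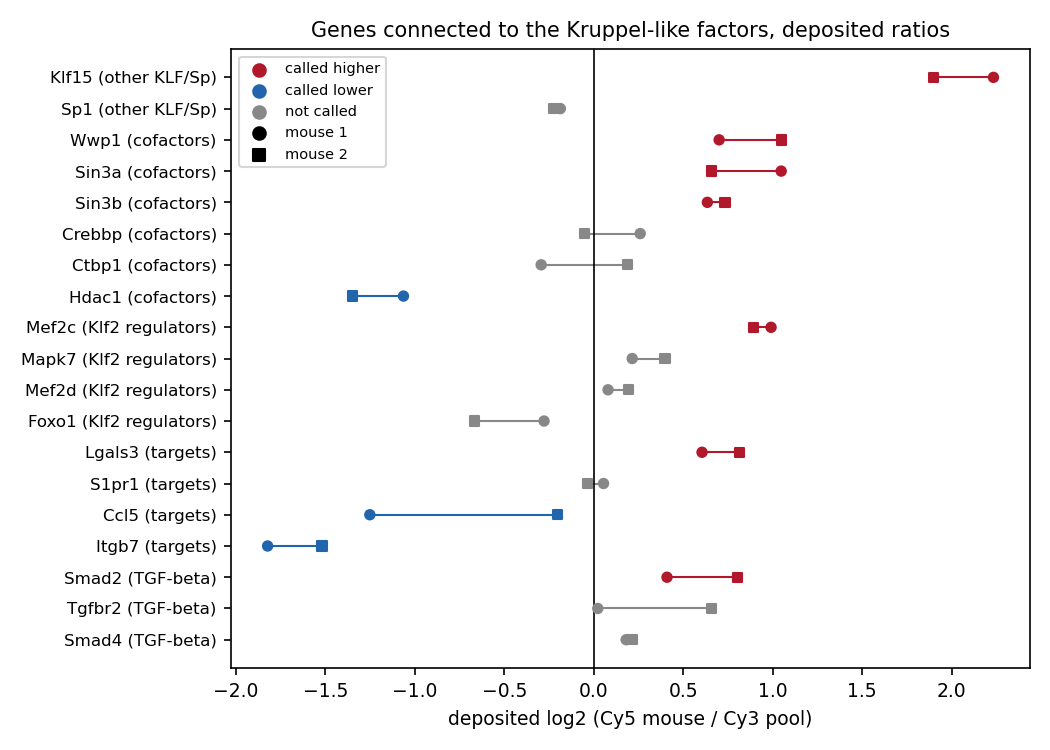
Deposited log2 ratios (hyperglycemic mouse over pool) of the 19 genes listed around the Kruppel-like factors that have a value. Circles are mouse 1 and squares mouse 2, joined by a line, with red for genes called higher, blue for genes called lower and grey for genes not called. Klf15 lies furthest to the right and Itgb7 furthest to the left.

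The lymph node's own lymphocyte markers were detected: 6 of 9 T cell and 3 of 6 B cell genes were well above background in Cy5 on both arrays. Of 6 T cell markers in the value table, 6 were called lower (median -1.18), and the summed processed signal of all 9 listed T cell genes was 9001 and 13278 in the hyperglycemic mice, against 20020 and 30815 in the pool. Cd3g, a chain of the T cell receptor complex, had the value -1.86 ± 0.15 (SD, n = 2). Of 3 endothelial markers 2 were called higher (Kdr and Lyve1), and the summed processed signal of all 7 listed endothelial genes was 5165 and 5122 in the hyperglycemic mice, against 2617 and 3763 in the pool. Of 4 fibroblastic stroma markers 2 were called higher (Lum, 1.20, and Dcn, 1.00) and 1 lower (Col3a1, -0.76), so the list was split. The sums over all 7 listed stromal genes, in which bright genes weigh most, were 47587 and 44750 in the hyperglycemic mice, against 21815 and 31036 in the pool. In the scanner-signal set the stromal list median was -0.06. Scanner-signal ratios gave a call of lower for 1 of 7 T cell markers, and 0 of 4 endothelial and 0 of 6 stromal markers were called in either direction. Of 8 exocrine pancreas markers 7 were called higher in each set, and Amy2a5, an amylase, was called lower in the deposited set (-2.15) but had 1.44 in the scanner-signal set without a call. The sizes differed, with a list median of 0.79 in the deposited set and 4.97 in the scanner-signal set. Scanner-signal ratios climbed at the bright end, and 358 of 882 probes in the brightest of 10 intensity bins were called higher. Both sets come from the same arrays and are not independent. Summed processed signals of the 8 genes were 1.27e+06 and 1.96e+06 in the hyperglycemic mice, against 789094 and 1.14e+06 in the pool. B cell markers were called lower for 2 of 3 in the value table, macrophage markers higher for 1 and lower for 1 of 5, adipocyte markers lower for 1 of 2, and erythroid markers higher for 2 of 2. The part of these cell types in the Kruppel-like factor ratios was not tested.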

How the data were processed

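Pancreatic lymph node RNA of hyperglycemic mice (Cy5) was hybridised against 1 euglycemic pool (Cy3) on 2 arrays of Agilent design 014868. Per the file headers, spots were read with Feature Extraction 10.7.3.1 and annotated on mm8, and the deposited spot, background and processed columns hold intensity. Per the file headers, processed signals were background-subtracted and dye-normalized, and the deposited LogRatio column is log10 of Cy5 over Cy3. The authors' value table holds log2 ratios of 5098 probes (26 controls) and equals the log10 ratios times 3.32. How its probes were chosen is not given in the sources used here.

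For the scanner-signal fit, background was corrected by normexp (offset 50), ratios were normalized by loess (span 0.3), and a probe had to clear background in 1 channel or more on each array. The deposited log2 ratios were used as given. A two-sided moderated test of the mean of every probe against 0 was run with limma 3.58.1 (R 4.3.3), with Benjamini-Hochberg adjustment over all tested probes (threshold 0.05), and was tested on simulated data. A gene took its tested probe of highest mean intensity. Cy5 was well above background at 14.5% and 16.4% of gene spots on arrays 1 and 2, and Cy3 at 21.7% and 63.0%. The number of arrays limits precision. 0 spots were saturated, and 338 and 184 outlier gene spots were left out. Names were updated for 23374 probes by accession, 6733 by symbol and 2919 by synonym, while 8148 kept the file's name.

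Named genes were every member probe, the called genes of each list (at most 4 per list and fit), the 3 nearest to the brightest member, and at most 2 called markers per list. Values of other list genes are given because a result turns on them, chosen after they were seen. The value of 1 listed gene is not reported here. The members and lists were chosen with earlier results of these data known.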

Additional observations from a re-analysis of the deposited data

How the results depend on the processing

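Genes called in the scanner-signal fit numbered 376 higher and 36 lower of 7297. The other settings tested as many genes, except 4406 with deposited ratios or both channels and 27569 without a filter. The counts higher and lower were 80 and 8 with normexp offset 10, 1023 and 782 without background correction, 2168 and 2683 with median centring, 1118 and 800 with deposited ratios, 84 and 0 with probes well above background in both channels, 23 and 0 without a filter, and 583 and 437 with an intensity trend. With the loess fitted to the tested probes alone, chosen after seeing the data, they were 302 and 264. Higher calls made up 91.3% of calls in the scanner-signal fit, 58.3% in the deposited ratios, 53.4% with that loess, 56.7% without background correction, 57.2% with the trend and 44.7% with median centring. Agilent processed signals, with the same ratios as the value table over more and dimmer probes, gave 0 calls by limma, where 3396 probes were at an unadjusted p under 0.05, 6 of them member probes.

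Kruppel-like factor genes called higher numbered 1 in the scanner-signal fit, 4 without background correction, 3 with median centring, 0 with processed signals, 5 with deposited ratios, 3 with the trend and 3 with the loess on tested probes. These are of 7 members tested, or 6 with deposited ratios. In the same order, 376, 1023, 2168, 0, 1118, 583 and 302 of all genes were called higher. Members called lower were 0, but 3 with median centring, beside 2683 of 7297 genes. There Klf2 turned to -0.77 and Klf6 to -0.76. The cause was not tested. Over all settings run, the means over both arrays of Klf4 (0.37 to 1.77), Klf10 (0.32 to 1.43) and Klf3 probe 1 (0.03 to 0.89) stayed above 0.

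Of the 53 pathway genes 29 were measured, but 19 with deposited ratios or both channels, and 53 without a filter. Pathway genes called higher numbered 1, and 0, 6, 10, 0, 7, 0, 0 and 3 with offset 10, no background correction, median centring, processed signals, deposited ratios, both channels, no filter and the trend, and 0 with the loess on tested probes. Called lower they numbered 1, and 0, 3, 13, 0, 3, 0, 0 and 4 under the same 8 settings. Centring the deposited columns or adding a trend left 5 of 6 members called higher, beside 1058 and 1160 of 4406 genes. Leaving out an array leaves no residual degrees of freedom, so only single-array values exist, as printed. No paired analysis was possible because both arrays carried one and the same Cy3 pool. Dim Cy5 signals limit both Klf3 probes, Klf7 and Klf12. For Klf10, Klf6 probe 1 and Klf13 probe 1, Cy5 was well above background but low. It was 55.8 and 50.4 for Klf6 probe 1, over local backgrounds of 32.5 and 32. For Klf13 probe 1 it was 62.1 and 64.4, over 38 and 38.5.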

Other observations

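The Klf family member Klf9, a glucocorticoid-responsive gene, was outside the value table. Its probe A_51_P412200 had processed ratios of 3.98 and 1.99 and probe A_52_P675996 had 2.03 and 0.80 on arrays 1 and 2, while their scanner-signal ratios were 0.22 and 0.52 for A_51_P412200 (adjusted p = 0.178 by limma) and 0.17 and 0.21 for the brighter A_52_P675996 (adjusted p = 0.338 by limma). Pool signals of both probes were well above background on array 2 alone. The Cy5 signal of A_52_P675996 was so on array 1 alone, so on each array its ratio rests on a channel near background.

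In the first 50 rows of spots on array 1 the median Cy3 local background was 167, against 31 in later rows, and on array 2 it was 28 and 32. Klf12 probe 3 (A_52_P215152, row 3) had a Cy3 spot signal of 2114 on array 1, against 45.1 on array 2, with processed ratios of -2.75 and 0.36. A Klf8 probe (A_52_P578354, row 9) had 2413, against 47.1, with processed ratios of -3.08 and 0.29. Klf13 probe 1 (row 19) and Klf6 probe 1 (row 24) lay in the same rows. Some members in later rows also had more Cy3 background on array 1 than on array 2. The values were 250.5 against 27 for Klf6 probe 2 (row 61) and 141.5 against 30 for Klf7 probe 2 (row 73). They were 89 against 31 for Klf2 probe 2 (row 98) and 112 against 30 for Klf4 (row 160). Klf2 probe 1, Klf3 probe 1, Klf7 probe 1 and Klf10 had 28 to 39 on array 1.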
